A study of Mus musculus with 19 samples.

Results

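RNA from the left prelimbic cortex was compared between all 8 libraries of mice given MK-801 and all 11 libraries of mice given saline, which together are the 19 libraries of the study. The 2 sides were set against each other in 1 additive model that carried a term for c-MSST. The fold changes below are therefore averages over mice with and without c-MSST, and the 2 states can differ in size or sign. Mice on the MK-801 side had daily intraperitoneal injections of 0.2 mg/kg for 2 weeks, and mice on the other side had saline by the same route. The MK-801 side holds the SCZ group (4 libraries) and the SCZ+c-MSST group (4 libraries), and the saline side holds the Control group (6 libraries) and the Control+c-MSST group (5 libraries). In c-MSST, ferumoxytol, an iron oxide nanoparticle, was injected once into the left prelimbic cortex by stereotactic surgery, and the mouse was then placed under a pulsed magnetic field. Tissue was taken 3 days after surgery. The labels give no strain, sex, age, batch or day of injection at tissue collection, and do not say whether mice without c-MSST had surgery.

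MK-801 blocks the NMDA receptor, a glutamate-gated channel, by lodging in its open pore. Repeated dosing of rodents with it is widely used as a model of schizophrenia, an illness in which reduced NMDA receptor signalling is one of the main theories. The prelimbic cortex is part of the rodent medial prefrontal cortex, where excitatory pyramidal neurons are held in check by GABA-releasing interneurons. Calcium entering through NMDA receptors drives immediate early genes, which neurons switch on within minutes of activity.

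No gene passed an adjusted p under 0.05 in the MK-801 comparison (edgeR quasi-likelihood test, Benjamini-Hochberg adjustment over 16417 genes; 0% called). Its smallest adjusted p was 0.0603, and 30 genes shared it. At an unadjusted p under 0.05 stood 2675 genes (16.3%), of which 1323 were higher (8.06%) and 1352 were lower (8.24%) with MK-801. DESeq2, run as an alternative on the same counts, called 269 genes higher (1.90% of the 14180 it adjusted) and 301 lower (2.12%), and limma voom with quality weights called 151. A log2 fold change above 0 was found for 50.0% of all genes, which is the share against which the counts of positive list members below are read. Counts of members at an unadjusted p under 0.05 are read against the 8.06% higher and 8.24% lower of all genes. Fold changes were small, with a median absolute log2 fold change of 0.0856.

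Library totals ran from 65498768 to 82416746 counts in the MK-801 libraries and from 50140626 to 72866386 counts in the saline libraries. Totals averaged 71857748 ± 5550681 counts with MK-801 and 63967952 ± 6335224 counts with saline (SD), a difference of 7889796 counts (exact permutation test of 75582 splits, two-sided p = 0.00937). The permutation test took no account of c-MSST. The lowest totals were those of Control 1 (50140626) and Control 4 (56438232), both without c-MSST. All levels below are TMM-normalised CPM, that is, counts scaled to a common library size. Markers of upper and deep layer cortical neurons were detected in every library, as the tissue label would have it. Striatal medium spiny neuron markers were detected as well, and their level differed between the sides. The summed level of the 16 striatal markers ran from 1520 to 3540 CPM in MK-801 libraries and from 365 to 2810 CPM in saline libraries. Of these markers, Ido1 alone was at 0 in some library. Ppp1r1b, the dopamine-regulated phosphatase inhibitor DARPP-32, had 260, 399 and 550 CPM (lowest, median, highest) with MK-801 and 38.9, 137 and 408 CPM with saline. Drd2, the D2 dopamine receptor, had 41.2, 66.7 and 101 CPM with MK-801 and 1.3, 15.5 and 68.5 CPM with saline. In bulk tissue, fewer cells of a type and less RNA per cell cannot be told apart.

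A striatal score was formed for each library as the mean log2 CPM of the 16 markers, each centred over the 19 libraries. It ran from 0.230 to 1.40 in the 8 MK-801 libraries and from −2.35 to 1.10 in the 11 saline libraries. Of the saline libraries, 4 were at or above the lowest MK-801 library and 7 were below it. All 16 markers had positive fold changes, 15 with an unadjusted p under 0.05, with a median log2 fold change of 1.13 in the additive model, 1.14 without c-MSST and 1.13 with it. When the score was added to the model as a covariate, the genes at an unadjusted p under 0.05 numbered 823 (5.01%), in place of 16.3%. Mrpl16, a mitochondrial ribosomal protein gene, was then the 1 gene called, at a log2 difference of 0.67 ± 0.093 (SE) and an edgeR adjusted p of 0.0118, next to 0.37 ± 0.10 without the score. It had 15.7, 17.4 and 19.4 CPM with MK-801 and 10.1, 13.9 and 17.4 CPM with saline. The correlation of Mrpl16 with the score was −0.84 in the saline libraries and 0.20 in the MK-801 libraries. The model fits 1 relation to the score for both sides, so the larger value and the call depend on that setting. The part of the striatal markers in the gene differences that follow cannot be told apart from MK-801 where the score and the treatment move together. Values with the score in the model are therefore given below for many of the genes and lists.

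**Figure D1:**
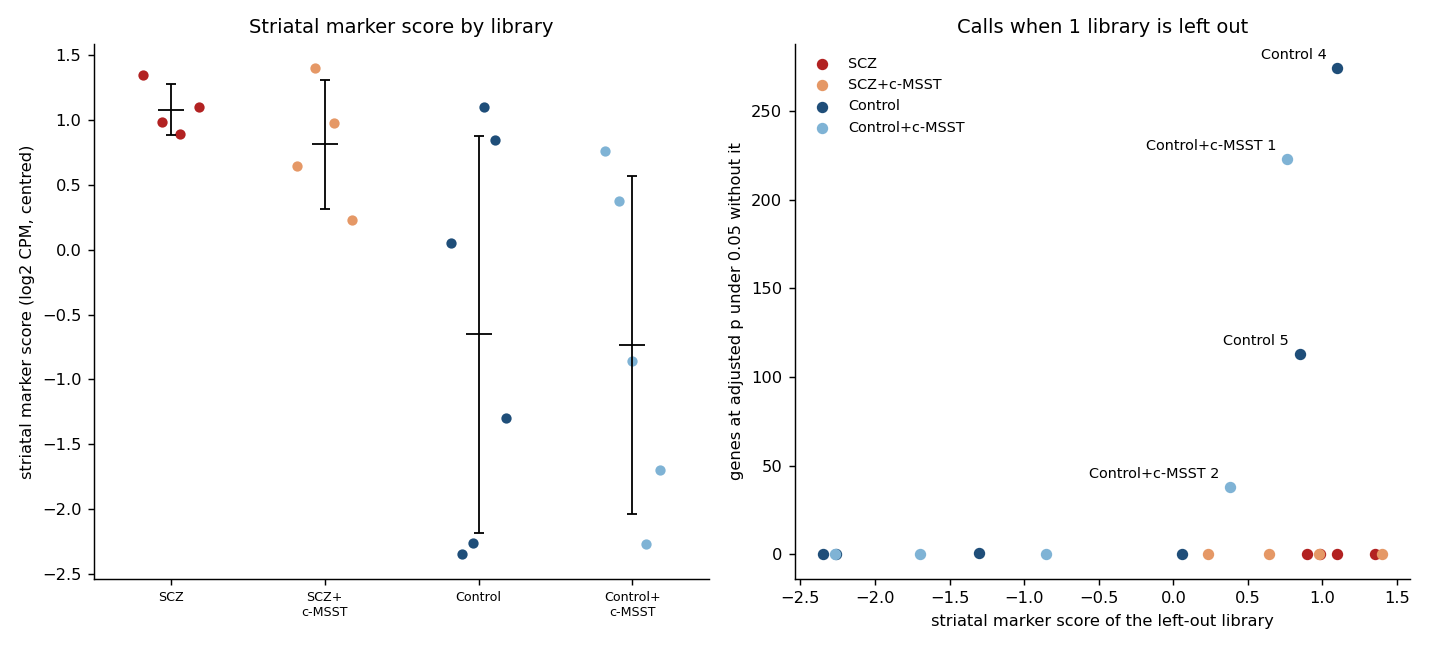
Left, the striatal marker score (mean centred log2 CPM of 16 markers) of each library in the SCZ, SCZ+c-MSST, Control and Control+c-MSST groups, with bars for mean and SD. Right, the number of genes at an edgeR adjusted p under 0.05 when 1 library is left out, against that library's score; Control 4, Control+c-MSST 1, Control 5 and Control+c-MSST 2, the 4 saline libraries of highest score, gave 274, 223, 113 and 38 genes.

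The number of calls depended on which saline library was in the fit. Leaving out Control 4 (striatal score 1.10) gave 274 genes at an adjusted p under 0.05, leaving out Control+c-MSST 1 (0.765) gave 223, leaving out Control 5 (0.849) gave 113, and leaving out Control+c-MSST 2 (0.379) gave 38 (edgeR in each case). These are the 4 saline libraries with the highest striatal scores. Leaving out Control 7 gave 1 gene, and each of the other 14 fits without 1 library gave 0. No fit without an MK-801 library called a gene.

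Of the 6 genes named on the higher side by smallest p, Sez6 came first. Sez6 encodes a neuronal membrane protein that shapes dendrites and excitatory synapses, and lies at chr11:77930800-77979048 on the plus strand (mm10). It had 372, 408 and 451 CPM with MK-801 and 236, 318 and 356 CPM with saline, so that all 8 MK-801 libraries were above all 11 saline libraries. The log2 fold change was 0.39 ± 0.066 (SE), with an edgeR adjusted p of 0.0603 and a DESeq2 adjusted p of 0.000154. It was 0.42 without c-MSST and 0.36 with c-MSST. With the striatal score in the model it was 0.23 ± 0.059 (edgeR adjusted p = 0.924). Many genes share that adjusted p in the model with the score, and Sez6 had an unadjusted edgeR p of 0.0011 there. The 5 saline libraries of highest striatal score had 352 (Control 4), 342 (Control 5), 356 (Control+c-MSST 1), 337 (Control+c-MSST 2) and 339 CPM (Control 1), and the other 6 saline libraries had at most 318 CPM.

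Groups that do not overlap were rare: 3 of all genes tested had every MK-801 library above every saline library (0.0183%) and 1 had every MK-801 library below (0.00609%). Cd180 is the second of the 3. It encodes a Toll-like receptor relative of immune cells (chr13:102693558-102739629, plus strand). Cd180 had 2.88, 3.20 and 4.83 CPM with MK-801 and 1.27, 2.07 and 2.59 CPM with saline, a log2 fold change of 0.73 ± 0.14 (edgeR adjusted p = 0.0603). Its fold change was 0.66 without c-MSST and 0.81 with c-MSST, and 0.63 with the striatal score in the model. Csf1r, the growth factor receptor that marks microglia, had 120 ± 8.83 CPM with MK-801 and 113 ± 7.94 CPM with saline (SD), and of 13 microglial markers 2 were higher and 1 lower at an unadjusted p under 0.05. The third gene, Hsf3, a heat shock factor gene, was close to the detection floor, at 0.108, 0.156 and 0.440 CPM with MK-801 and 0, 0.0594 and 0.106 CPM with saline. On the lower side the single gene was Prss48, a serine protease gene, with 0.956, 1.25 and 1.48 CPM with MK-801 and 1.48, 1.75 and 2.67 CPM with saline. Hsf3 and Prss48 were named after their values were seen.

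Id4 encodes an inhibitor of basic helix-loop-helix transcription factors and lies at chr13:48261228-48266026 on the plus strand. It had 67.7, 92.7 and 101 CPM with MK-801 and 47.2, 61.7 and 83.3 CPM with saline, and 6 of the 8 MK-801 libraries were above every saline library. The log2 fold change was 0.54 ± 0.093, at 0.48 without c-MSST and 0.60 with c-MSST (edgeR adjusted p = 0.0603 in the additive model). Il33, an alarm cytokine made by glia in the brain, had 20.3, 25.7 and 31.1 CPM with MK-801 and 13.3, 21.6 and 27.6 CPM with saline. For Il33 the groups without c-MSST were higher than those with it. SCZ libraries averaged 28.2 ± 2.17 CPM against 24.1 ± 2.31 in Control, and SCZ+c-MSST libraries 22.7 ± 1.98 against 15.7 ± 1.97 in Control+c-MSST (SD). Within each c-MSST state the MK-801 group had the higher mean. H3c6, a replication-dependent histone H3 gene, had 8.95, 10.9 and 13.9 CPM with MK-801 and 4.51, 6.71 and 9.57 CPM with saline. Coa6, an assembly factor of cytochrome c oxidase, had 4.26, 5.11 and 6.68 CPM with MK-801 and 2.92, 3.90 and 4.51 CPM with saline. Their log2 fold changes were 0.67 ± 0.13 for H3c6, 0.44 ± 0.087 for Coa6 and 0.38 ± 0.073 for Il33, all at the shared edgeR adjusted p of 0.0603. The model with the striatal score gave 0.42 for H3c6, 0.38 for Coa6, 0.29 for Il33 and 0.33 for Id4 (shared edgeR adjusted p = 0.924). Unadjusted edgeR p values in that model were 0.0071 for H3c6, 0.0034 for Coa6, 0.0042 for Il33 and 0.0014 for Id4.

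On the lower side the smallest p belonged to 9330159F19Rik (chr10:29211606-29230779, plus strand), which the naming rule left out because it has a clone name. It had 78.0, 87.2 and 94.8 CPM with MK-801 and 90.3, 102 and 107 CPM with saline, and 7 of the 8 MK-801 libraries were below every saline library. Its log2 fold change was −0.21 ± 0.035 (edgeR adjusted p = 0.0603) and −0.25 ± 0.043 with the striatal score in the model (edgeR adjusted p = 0.0971). Of the 6 genes named by the rule on the lower side, the first was Abhd6, a lipase that breaks down the endocannabinoid 2-arachidonoylglycerol, which lies at chr14:8002902-8056763 on the plus strand. It had 41.8, 45.6 and 48.9 CPM with MK-801 and 48.8, 53.5 and 59.0 CPM with saline, and 7 of the 8 MK-801 libraries were below every saline library. Its log2 fold change was −0.24 ± 0.043, at −0.25 without c-MSST and −0.22 with c-MSST (edgeR adjusted p = 0.0603), and −0.22 with the striatal score in the model. Faah, which breaks down the other main endocannabinoid, anandamide, was looked at after Abhd6 had been seen. It had 63.5, 80.9 and 93.8 CPM with MK-801 and 78.5, 105 and 121 CPM with saline (log2 fold change −0.34 ± 0.075, edgeR adjusted p = 0.0743; −0.12 with the striatal score).

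Unc13b, which encodes the vesicle priming protein Munc13-2, had 72.6, 80.3 and 85.2 CPM with MK-801 and 80.9, 93.9 and 105 CPM with saline. Kcnj6, the GIRK2 subunit of the potassium channels that G protein-coupled receptors open, had 83.7, 97.4 and 119 CPM with MK-801 and 104, 130 and 141 CPM with saline. In both genes 5 of the 8 MK-801 libraries were below every saline library. Adcy6, an adenylyl cyclase that makes cyclic AMP, had 60.2, 70.4 and 76.5 CPM with MK-801 and 66.9, 85.6 and 92.8 CPM with saline. Nuak1, an AMPK-related kinase that promotes axon branching, had 113, 146 and 161 CPM with MK-801 and 147, 174 and 203 CPM with saline. Dtx4, a ubiquitin ligase of the Notch pathway, had 72.7, 81.4 and 94.6 CPM with MK-801 and 85.2, 106 and 144 CPM with saline. For all 5 genes every MK-801 library was below the saline median. The log2 fold changes were −0.24 for Unc13b, −0.33 for Kcnj6, −0.26 for Adcy6, −0.30 for Nuak1 and −0.38 for Dtx4, each at an edgeR adjusted p of 0.0603. Once the striatal score was in the model they were −0.14 for Unc13b, −0.20 for Kcnj6, −0.14 for Adcy6, −0.18 for Nuak1 and −0.21 for Dtx4 (edgeR adjusted p = 0.924 for each).

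**Figure D2:**
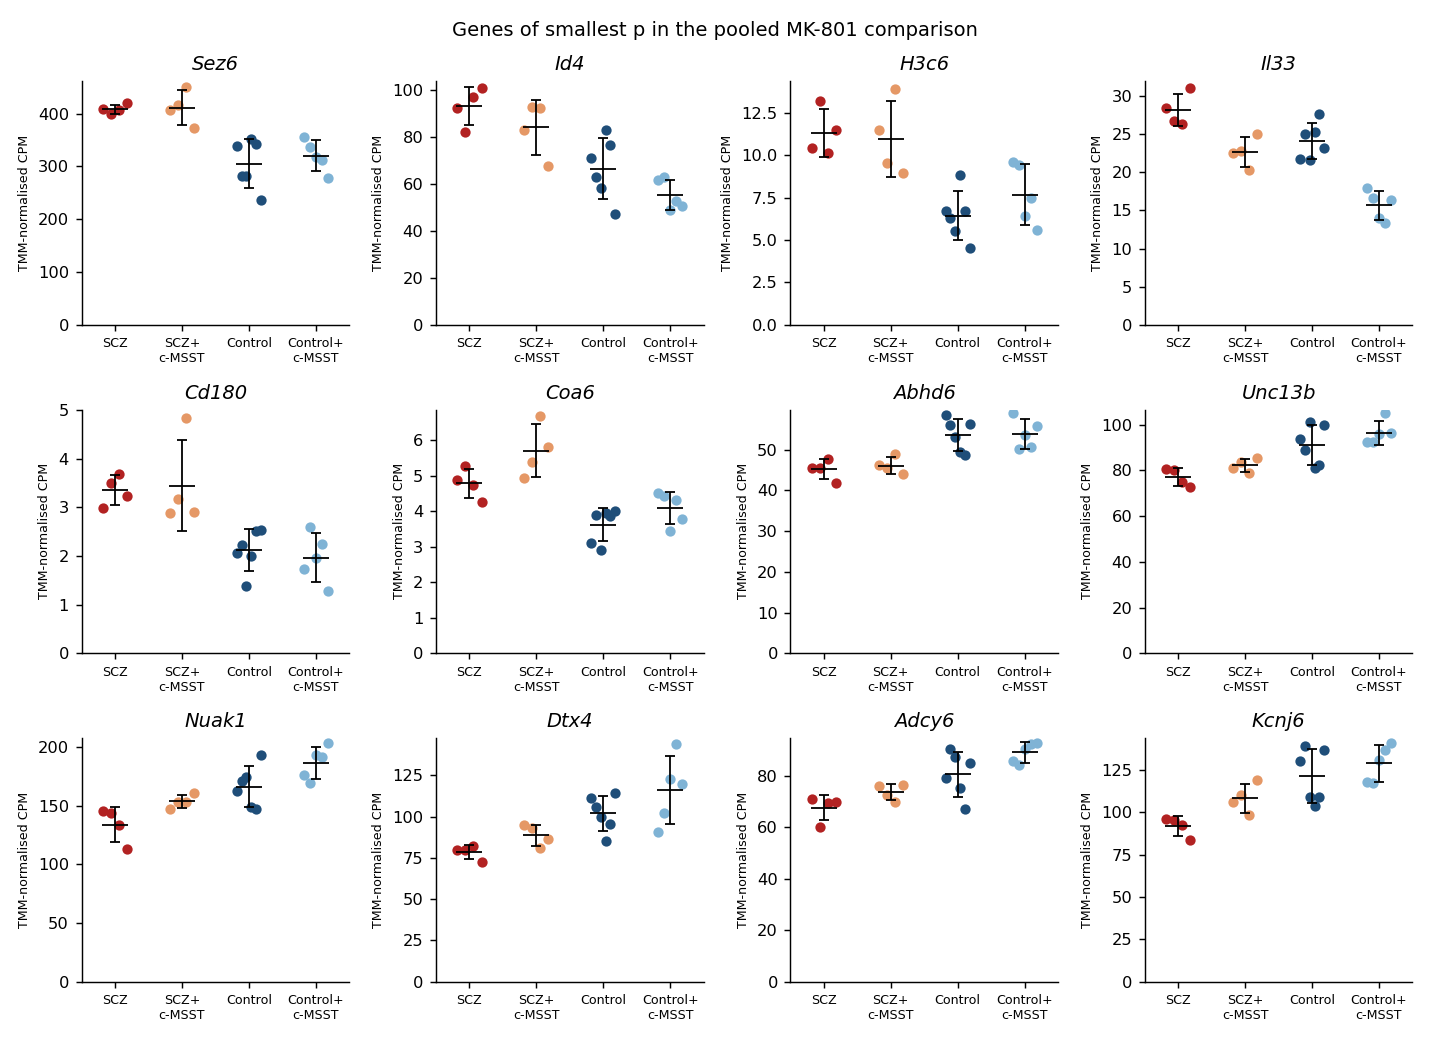
TMM-normalised CPM of the 6 higher and 6 lower genes named by smallest p, clone names left out, in each library of the SCZ, SCZ+c-MSST, Control and Control+c-MSST groups, with bars for mean and SD. Sez6 and Cd180 show no overlap between the 8 MK-801 and 11 saline libraries, and the other 10 genes overlap in part.

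Among the 30 genes at the smallest adjusted p, 13 were higher and 17 lower with MK-801, with sizes from 0.163 to 0.953 on the log2 scale and a median size of 0.318. All 30 had the same sign and an unadjusted p under 0.05 in each c-MSST state, where the same libraries that chose them are seen again in parts. The difference of the MK-801 effect between the states was under an unadjusted p of 0.05 for 2 of the 30, Il33 and Lifr, and the smallest edgeR adjusted p of that difference among them was 0.627. With the striatal score in the model all 30 kept their sign and an unadjusted p under 0.05, and none had an adjusted p under 0.05. Arc, the activity-regulated cytoskeletal gene, had the largest size of the 30, and Rps10 and Rps28, genes of the small ribosomal subunit, were among the smaller ones at 0.16 and 0.22.

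The genes whose levels tracked Sez6 most closely over the 19 libraries were Mctp1 (Pearson r = 0.953), Fam102b (0.942), Th (0.934), H3c6 (0.932), Clip4 (0.929) and Bcr (0.925). These values describe likeness only and share libraries, depth and tissue makeup. The same 6 genes had correlations with the striatal score of 0.761 to 0.944. Mctp1, a calcium-binding membrane protein gene, had 88.1, 104 and 116 CPM with MK-801 and 55.4, 77.8 and 108 CPM with saline. Th, tyrosine hydroxylase, the rate-limiting enzyme of dopamine synthesis, had 2.19, 2.65 and 4.10 CPM with MK-801 and 0.492, 1.36 and 2.67 CPM with saline. The log2 fold changes were 0.41 for Mctp1 and 1.0 for Th. With the striatal score in the model they were 0.17 and 0.33.

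No NMDA receptor subunit gene, the target of the drug, passed the test. NMDA receptors pair the obligatory subunit Grin1 with Grin2 or Grin3 subunits, and all 7 subunit genes were measured. Grin1 had 525, 589 and 651 CPM with MK-801 and 539, 609 and 732 CPM with saline, a log2 fold change of −0.08 ± 0.051 (edgeR adjusted p = 0.440). Grin2a, a subunit that becomes prominent in mature cortex, had 530, 673 and 808 CPM with MK-801 and 656, 764 and 1080 CPM with saline. The Grin2a fold change was −0.29 ± 0.11 (edgeR adjusted p = 0.181), made of −0.51 without c-MSST and −0.04 with c-MSST, and the edgeR adjusted p of the difference between the states was 0.623. Grin2b had 406, 453 and 505 CPM with MK-801 and 422, 494 and 2560 CPM with saline. The top value belongs to Control+c-MSST 7, and the next saline library had 527 CPM. The log2 fold change of Grin2b was −0.52 with that library and −0.12 without it. Grin2c (0.04), Grin2d (−0.13), Grin3a (−0.09) and Grin3b (0.13) had overlapping sides and edgeR adjusted p values of 0.480 to 0.845, and the sign of Grin2c, Grin3a and Grin3b turned when the striatal score was in the model.

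Of 9 AMPA and kainate receptor genes, which carry fast excitatory transmission, 1 was higher and 2 were lower at an unadjusted p under 0.05, and the list's median log2 fold change was −0.02 (0.01 with the striatal score, 5 positive and none under an unadjusted p of 0.05). Gria1 had 608 ± 55.9 CPM with MK-801 and 621 ± 155 CPM with saline, and Gria2 had 810 ± 18.9 and 795 ± 48.9 CPM (SD). Of 7 metabotropic glutamate receptor genes, Grm4 alone was under an unadjusted p of 0.05, on the higher side. The 18 postsynaptic scaffold genes held 7 lower and 0 higher members at an unadjusted p under 0.05 (median −0.06, 5 positive). Among them, Dlgap1 had 628, 729 and 804 CPM with MK-801 and 699, 840 and 883 CPM with saline. Shank1, a scaffold that anchors receptors in dendritic spines, had 986, 1030 and 1270 CPM with MK-801 and 994, 1300 and 1540 CPM with saline. Camk2a, the calcium-activated kinase of the same structure, had 3310, 3940 and 4360 CPM with MK-801 and 3640, 4660 and 5090 CPM with saline. The 17 presynaptic genes held 5 lower and 0 higher members (median −0.09, 3 positive), and the 29 potassium channel genes held 8 lower and 5 higher members (median −0.11, 10 positive). Kcnj9, the GIRK3 subunit that assembles with Kcnj6, had 116, 143 and 157 CPM with MK-801 and 137, 168 and 221 CPM with saline. Lower members at an unadjusted p under 0.05 in the model with the striatal score were 1 postsynaptic, 0 presynaptic and 3 potassium channel genes. The medians in that model were −0.06 for the postsynaptic genes (5 positive), −0.08 for the presynaptic genes (3 positive) and −0.06 for the potassium channel genes (8 positive).

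Genes of GABA synthesis, transport and GABA-B receptors had positive fold changes in 7 of 10 members. At an unadjusted p under 0.05, 4 were higher (Slc32a1, Abat, Gad2 and Gad1) and 1 was lower (Gabbr2), and DESeq2 called the 4 higher ones. Slc32a1, the vesicular GABA transporter, had 67.0, 86.9 and 114 CPM with MK-801 and 45.7, 54.0 and 84.1 CPM with saline (log2 fold change 0.55 ± 0.13, edgeR adjusted p = 0.0743). Gad2, which makes GABA from glutamate at nerve terminals, had 126, 160 and 227 CPM with MK-801 and 80.2, 94.4 and 174 CPM with saline (0.61 ± 0.15). Gad1, the isoenzyme that supplies most GABA, had 303, 365 and 402 CPM with MK-801 and 251, 299 and 392 CPM with saline (0.24 ± 0.071). All 8 MK-801 libraries were above the saline median in all 3 genes. Medium spiny neurons of the striatum also use GABA and express these genes, and with the striatal score in the model 2 of the 10 genes (Slc32a1 at 0.24 and Gad2 at 0.26) were higher at an unadjusted p under 0.05.

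The interneuron list shares Gad1, Gad2 and Slc32a1 with the list above. It also shares Tac1, which is among its higher members, with the striatal markers that make up the striatal score. Of its 20 members, 7 were higher and 2 lower at an unadjusted p under 0.05, and DESeq2 called Dlx2, Dlx5, Dlx6, Gad1, Gad2 and Slc32a1 higher. Dlx6, a homeobox gene of forebrain GABA neurons, had 4.02, 6.28 and 7.70 CPM with MK-801 and 1.56, 3.37 and 6.26 CPM with saline. The 2 lower members were the cortical subtype genes Cck (log2 fold change −0.25) and Vip (−0.27), while the subtype genes Pvalb (−0.18) and Sst (0.01) were not under an unadjusted p of 0.05. Once the striatal score was in the model, 3 members were higher and 0 lower.

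GABA-A receptor subunits, which form the chloride channels that GABA opens, had 16 tested genes, with 4 higher and 1 lower at an unadjusted p under 0.05 (median 0.19). Adding the striatal score left 1 higher and 1 lower, with 11 of 16 positive and a median of 0.01. Gabrg1, a gamma subunit gene, is 1 of the 30 genes at the smallest adjusted p. It had 18.2, 26.9 and 37.8 CPM with MK-801 and 15.5, 17.2 and 26.8 CPM with saline (log2 fold change 0.56 ± 0.11, edgeR adjusted p = 0.0603; 0.42 with the striatal score). Gabrb2, a beta subunit gene, had 345 ± 21.2 CPM with MK-801 and 369 ± 54.0 CPM with saline (SD). Gabre, the epsilon subunit gene, was low and scattered, at 0, 0.155 and 1.25 CPM with MK-801 and 0, 0.123 and 0.353 CPM with saline. Its log2 fold change of 0.66 ± 0.95 (edgeR adjusted p = 0.799) was 2.22 without c-MSST and −2.06 with c-MSST, and it was negative once the striatal score was in the model.

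**Figure D3:**
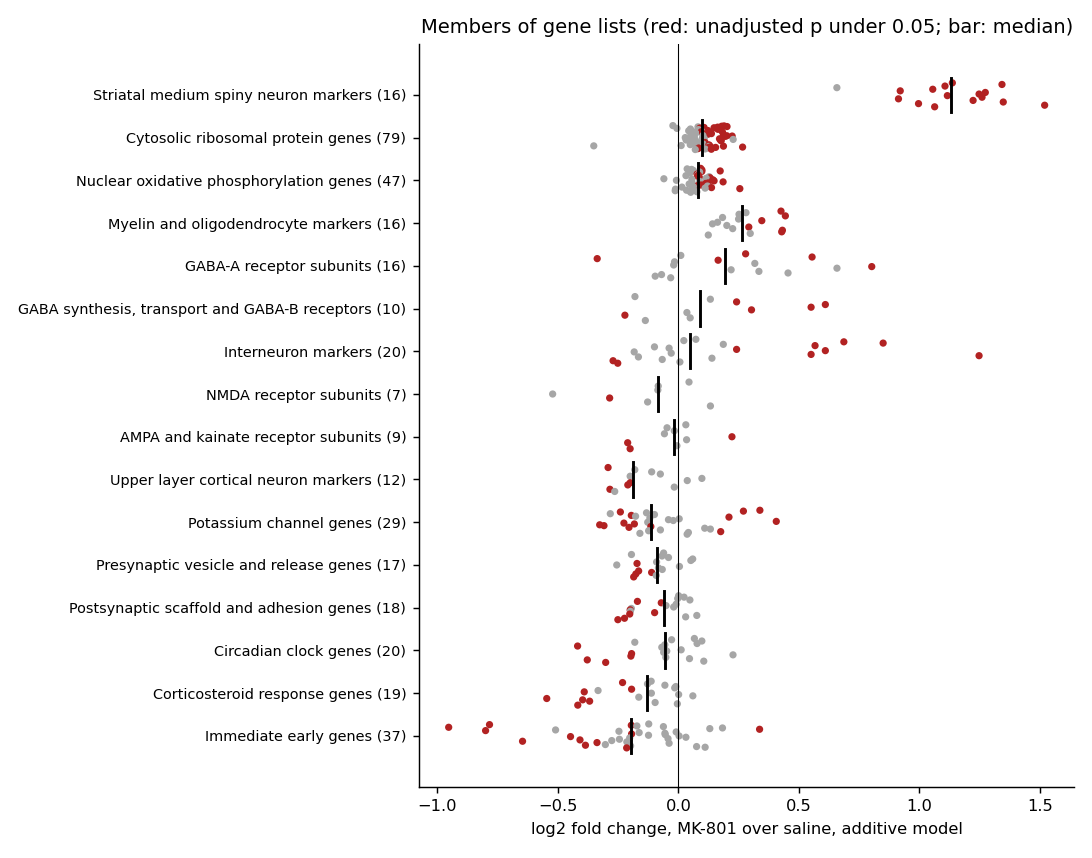
Log2 fold change (MK-801 over saline, additive model) of every tested member of 16 gene lists, with the number of tested members in brackets. Black bars are medians, from 1.13 for the striatal markers to −0.20 for the immediate early genes, and red points have an unadjusted p under 0.05; no point had an edgeR adjusted p under 0.05.

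Immediate early genes had mostly negative fold changes. Of 37 tested members, 7 were positive, 11 were lower and 1 (Inhba) was higher at an unadjusted p under 0.05, and the median log2 fold change was −0.20. DESeq2 called Arc, Bdnf, Dusp5, Egr2 and Trib1 lower. Arc, whose messenger RNA travels to active synapses, lies at chr15:74669083-74672570 on the minus strand. It had 60.5, 81.5 and 96.5 CPM with MK-801 and 85.3, 163 and 229 CPM with saline, so that every MK-801 library was below the saline median and 9 of 11 saline libraries were above every MK-801 library. The log2 fold change was −0.95 ± 0.19, at −1.15 without c-MSST and −0.74 with c-MSST (edgeR adjusted p = 0.0603; DESeq2 adjusted p = 0.000397). With the striatal score in the model it was −0.72 ± 0.22 (edgeR adjusted p = 0.924).

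Egr2, a zinc finger transcription factor, had 4.63, 7.03 and 10.1 CPM with MK-801 and 5.49, 12.0 and 18.4 CPM with saline (log2 fold change −0.80 ± 0.24). Dusp5, a phosphatase that switches off ERK kinase, had 3.86, 4.89 and 6.50 CPM with MK-801 and 4.40, 7.21 and 21.4 CPM with saline (−0.78 ± 0.24). Bdnf, a growth factor for synapses, had 16.5, 19.4 and 23.4 CPM with MK-801 and 18.8, 24.5 and 38.1 CPM with saline (−0.39 ± 0.13). Trib1, a pseudokinase, had 12.1, 13.4 and 16.4 CPM with MK-801 and 10.4, 17.7 and 26.0 CPM with saline (−0.41 ± 0.13). In all 4 genes every MK-801 library was below the saline median, while the ranges overlapped, and the edgeR adjusted p values were 0.110 to 0.141. With the striatal score in the model the log2 fold changes were −0.59 for Egr2, −0.22 for Dusp5, −0.15 for Bdnf and −0.42 for Trib1.

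The c-MSST states were also read one by one, without a test on the list. Its median log2 fold change was −0.42 without c-MSST, with 5 of 37 positive, and 0.02 with c-MSST, with 20 of 37 positive. Scores of the list ran from −0.510 to −0.269 in SCZ and from −0.325 to 0.346 in Control, and from 0.0404 to 0.284 in SCZ+c-MSST and from −0.328 to 0.342 in Control+c-MSST. Arc, Bdnf and Trib1 had negative values in both states, at −0.38 without c-MSST and −0.39 with it for Bdnf and at −0.42 and −0.40 for Trib1. Nr4a1, an orphan nuclear receptor, averaged 34.1 CPM in SCZ against 64.1 CPM in Control, and 66.4 CPM in SCZ+c-MSST against 65.3 CPM in Control+c-MSST. Fos averaged 10.5 CPM in SCZ against 20.4 CPM in Control, and 19.4 CPM in SCZ+c-MSST against 20.1 CPM in Control+c-MSST. Npas4 had the opposite order, with 23.1 CPM in SCZ against 15.0 CPM in Control, and 8.68 CPM in SCZ+c-MSST against 23.6 CPM in Control+c-MSST. The difference between the states had an edgeR adjusted p of 0.528 for Nr4a1, 0.717 for Fos and 0.447 for Npas4. Adding the striatal score to the model gave a list median of −0.05, with 3 members lower at an unadjusted p under 0.05. Without Control 2 and Control 3 the list's median in the additive model was −0.13, with 14 of 38 positive. At an unadjusted p under 0.05, 8 members were then lower and 1 was higher.

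**Figure D4:**
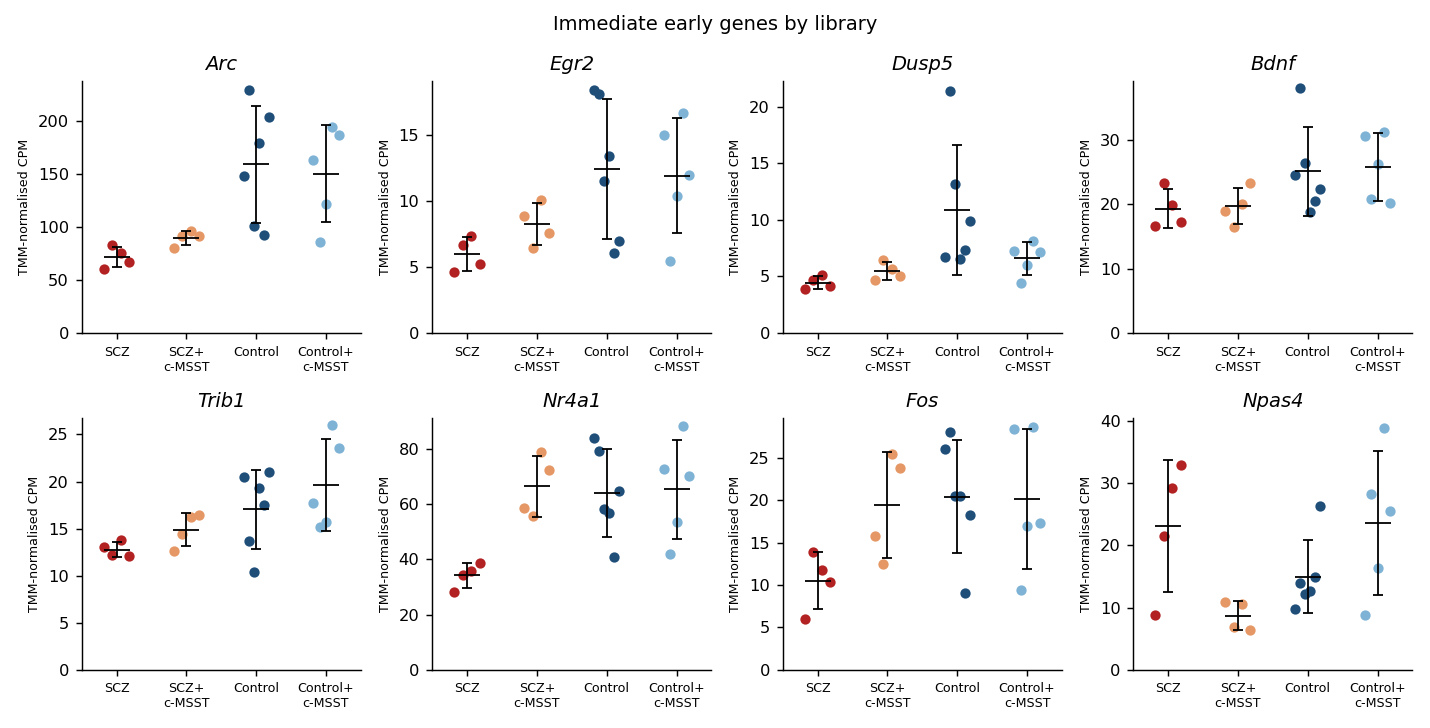
TMM-normalised CPM of 8 immediate early genes in each library of the SCZ, SCZ+c-MSST, Control and Control+c-MSST groups, with bars for mean and SD. Arc averaged 71.5 CPM in SCZ, 89.8 in SCZ+c-MSST, 159 in Control and 150 in Control+c-MSST, while Nr4a1 and Fos are low in SCZ and near the saline groups in SCZ+c-MSST.

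Promoters of many immediate early genes are read by factors that neuronal activity switches on, CREB at the cyclic AMP response element and SRF at the CArG box. Whether these factors act on the genes listed here was not tested. The sequences of 2 genes are shown, Dusp5 for holding both kinds of match and Nr4a1 for holding the core of the first kind alone. Promoter windows were used for 8 of the 11 immediate early genes that were lower at an unadjusted p under 0.05. The windows ran from 250 bases before to 50 after a RefSeq start (GRCm38.p6, 19 windows). The 120 bases before the start of Dusp5 (chr19:53529025-53529144, plus strand) and of Nr4a1 (chr15:101266726-101266845, plus strand) read as follows, with CArG boxes and the core TGACG on either strand in capitals.
Dusp5: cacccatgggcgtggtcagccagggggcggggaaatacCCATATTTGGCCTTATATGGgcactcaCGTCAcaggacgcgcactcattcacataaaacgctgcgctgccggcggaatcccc
Nr4a1: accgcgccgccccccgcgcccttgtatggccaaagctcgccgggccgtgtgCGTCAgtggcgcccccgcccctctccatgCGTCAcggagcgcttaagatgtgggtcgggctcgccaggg
The Dusp5 stretch holds 2 adjoining CArG boxes and 1 core, and the Nr4a1 stretch holds 2 cores. The core was found in a window of 6 of the 8 genes, against 20.8% of all 32851 windows in the table, and a CArG box in a window of 2 of the 8 (Dusp5 and Egr2), against 1.63% of all windows. The full element TGACGTCA, which contains the core, was in none of the windows of the 8 genes and in 1.79% of all windows. Several genes have more than 1 window, so these shares are not on the same footing, and a match describes letters and not binding. No window of Arc, Egr1 or Trib1 was among the 19 used, so the counts of genes with a match do not cover them. Windows on the chromosome that carries Egr1 were left out for these genes, so its absence says nothing about its promoter.

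Corticosteroid response genes, which stress hormones regulate through the glucocorticoid receptor, had 17 of 19 negative fold changes, with 7 lower and 0 higher at an unadjusted p under 0.05 and a median of −0.13. Zbtb16, a zinc finger repressor, had 106, 148 and 155 CPM with MK-801 and 115, 195 and 306 CPM with saline (−0.55 ± 0.17), and Sult1a1, a sulfotransferase, had 8.98, 9.90 and 14.1 CPM with MK-801 and 10.4, 13.3 and 17.3 CPM with saline (−0.37 ± 0.098). The median of the list was −0.40 without c-MSST and 0.04 with c-MSST. Once the striatal score was in the model, 2 members were lower at an unadjusted p under 0.05 (median −0.04, 7 of 19 positive). Zbtb16 was then −0.12 and Sult1a1 −0.44. Control 2 and Control 3 had corticosteroid scores of 0.367 and 0.339. Without both libraries the list's median was −0.04, with 5 of 19 positive, and 4 were lower and 1 higher at an unadjusted p under 0.05.

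Among 20 circadian clock genes, 5 were lower and 0 higher at an unadjusted p under 0.05, with a median of −0.05. Per1, among the lower ones, is also counted among the lower immediate early and corticosteroid response genes. Per2, a core repressor of the clock, had 41.7, 47.8 and 53.4 CPM with MK-801 and 50.0, 61.1 and 84.1 CPM with saline. Bhlhe40, a repressor of the same loop that activity also induces, had 80.7, 103 and 113 CPM with MK-801 and 108, 125 and 173 CPM with saline. The log2 fold changes were −0.42 ± 0.096 for Per2 and −0.38 ± 0.087 for Bhlhe40 (edgeR adjusted p = 0.0743 for both). Per2 was −0.39 without c-MSST and −0.45 with it, and Bhlhe40 was −0.33 and −0.43. In the model with the striatal score Per2 was −0.16 and Bhlhe40 −0.19, and the clock list had 1 higher and 2 lower members at an unadjusted p under 0.05 (median −0.03). The labels give no hour of tissue collection.

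Genes of protein synthesis and of the respiratory chain had small positive fold changes across their lists. Of 79 cytosolic ribosomal protein genes, 76 were positive, against 50.0% of all genes, with 36 higher and 0 lower at an unadjusted p under 0.05 and a median log2 fold change of 0.10. DESeq2 called 9 of them higher. Rps12 had 108, 122 and 138 CPM with MK-801 and 89.9, 106 and 120 CPM with saline (0.20 ± 0.044, edgeR adjusted p = 0.0743). Rpl14 had 88.4, 98.5 and 103 CPM with MK-801 and 80.3, 86.8 and 94.7 CPM with saline (0.16 ± 0.036, edgeR adjusted p = 0.0743). Of 47 nuclear oxidative phosphorylation genes, 43 were positive, with 19 higher and 0 lower at an unadjusted p under 0.05 and a median of 0.08. Ndufa1, a subunit of complex I, had 22.2, 27.4 and 31.2 CPM with MK-801 and 18.6, 23.6 and 26.1 CPM with saline (0.26 ± 0.057). Atp5b, the catalytic subunit of ATP synthase, had 718, 761 and 783 CPM with MK-801 and 643, 721 and 778 CPM with saline. Members of a list are not independent of each other, and the library scores of both lists overlapped between the sides. Ribosomal scores ran from −0.0397 to 0.144 with MK-801 and from −0.191 to 0.128 with saline. Oxidative phosphorylation scores ran from −0.0199 to 0.114 with MK-801 and from −0.157 to 0.0674 with saline. Ribosomal medians were 0.13 without c-MSST and 0.07 with it, and oxidative phosphorylation medians 0.10 and 0.07. With the striatal score in the model, 7 ribosomal and 4 oxidative phosphorylation genes were higher and 0 of either lower at an unadjusted p under 0.05. The medians in that model were 0.04 for the ribosomal genes (62 of 79 positive) and 0.06 for the oxidative phosphorylation genes (42 of 47 positive). Ribosomal protein genes have many near-identical pseudogenes, so their counts are uncertain where reads could be split.

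Other cell type markers were read in the same way. Of 12 upper layer neuron markers, 2 were positive and 4 were lower at an unadjusted p under 0.05 (median −0.19); with the striatal score 0 were positive and 1 was lower (median −0.21). Cux2 had 132, 146 and 167 CPM with MK-801 and 136, 175 and 239 CPM with saline, and Lhx2 had 33.5, 38.1 and 42.0 CPM with MK-801 and 38.0, 44.8 and 58.4 CPM with saline. Deep layer markers had 7 of 14 positive (median −0.05), and 7 with the striatal score (median −0.01). All 16 myelin and oligodendrocyte markers were positive, 6 with an unadjusted p under 0.05 (median 0.27), and the list's summed level ran from 3070 to 4530 CPM with MK-801 and from 1110 (Control+c-MSST 6) to 4790 CPM with saline. The myelin median was 0.12 without c-MSST and 0.43 with c-MSST. Adding the striatal score left 11 of 16 positive and 0 under an unadjusted p of 0.05 (median 0.08). Of 12 astrocyte markers, 1 was higher and 2 were lower at an unadjusted p under 0.05 (median −0.04), and 0 and 2 with the striatal score. Slc1a2, the glutamate transporter of astrocytes, had 3750, 3960 and 4500 CPM with MK-801 and 4140, 4600 and 6590 CPM with saline. Choroid plexus markers had a median of −1.05, with a summed level of 202 to 260 CPM in MK-801 libraries and 187 to 2690 CPM in saline libraries, and 7 of the 12 were at 0 in some library. The high saline values belong to Control 2 (choroid plexus score 5.03) and Control 3 (2.03), and without both libraries the list's median was 0.09. The choroid plexus median was 0.44 with the striatal score, with 10 of 12 positive and 0 under an unadjusted p of 0.05. Septal markers had 11 of 14 positive (median 0.40), with 6 higher and 1 lower at an unadjusted p under 0.05. Of the higher ones, Lhx8, Isl1 and Gbx2 were at 0 in some library. Septal scores averaged 0.583 ± 0.563 with MK-801 and −0.424 ± 0.793 with saline (SD), and summed levels were 110 to 211 CPM and 103 to 205 CPM. With the striatal score 10 septal markers were positive, with 1 higher and 0 lower at an unadjusted p under 0.05 (median 0.17). Haemoglobin and red cell genes had 7 of 8 positive (median 0.47), with summed levels of 225 to 1380 CPM with MK-801 and 156 to 329 CPM with saline, the highest being SCZ+c-MSST 2, and their near-identical copies make single genes uncertain. The haemoglobin median was −0.05 without c-MSST (4 of 8 positive), 1.20 with c-MSST (8 of 8) and 0.68 in the additive model with the striatal score (7 of 8).

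The effect of MK-801 was also taken within each c-MSST state, from contrasts that set different libraries against each other. In edgeR both contrasts came from the same fit of all libraries and share its normalisation and variance estimates per gene. Their p values are therefore not independent, and shares of genes under an unadjusted p of 0.05 in both states are a description only. SCZ set against Control gave 0 genes past the adjusted threshold and 2219 at an unadjusted p under 0.05, and SCZ+c-MSST set against Control+c-MSST gave 0 and 1801 (edgeR). DESeq2 called 243 and 73 genes and voom 2 and 40 in these comparisons. The difference between the states called 0 genes as well, with 1196 at an unadjusted p under 0.05, against 40 by DESeq2 and 0 by voom. The same sign in both states was found for 57.0% of all genes, and over 16417 genes the log2 fold changes had a Pearson r of 0.157 and a Spearman rho of 0.187, with genes not being independent.

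Genes higher in one state were more often positive in the other than all genes were. Of 1000 genes higher without c-MSST at an unadjusted p under 0.05, 72.0% were positive with c-MSST, against 49.9% of all genes, and 165 (16.5%) were also under an unadjusted p of 0.05 there, against 5.46%. Of 1219 genes lower without c-MSST, 67.8% were negative with c-MSST, against 50.1%, and 146 (12.0%) were under an unadjusted p of 0.05 there, against 5.51%. Started from the other state, the 165 genes are 18.4% of the 897 higher with c-MSST and the 146 are 16.2% of the 904 lower. The median log2 fold change of the 1000 genes was 0.28 where they were chosen and 0.08 in the other state. The striatal score was higher on the MK-801 side in both states, with means of 1.08 in SCZ against −0.650 in Control and of 0.813 in SCZ+c-MSST against −0.737 in Control+c-MSST.

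**Figure D5:**
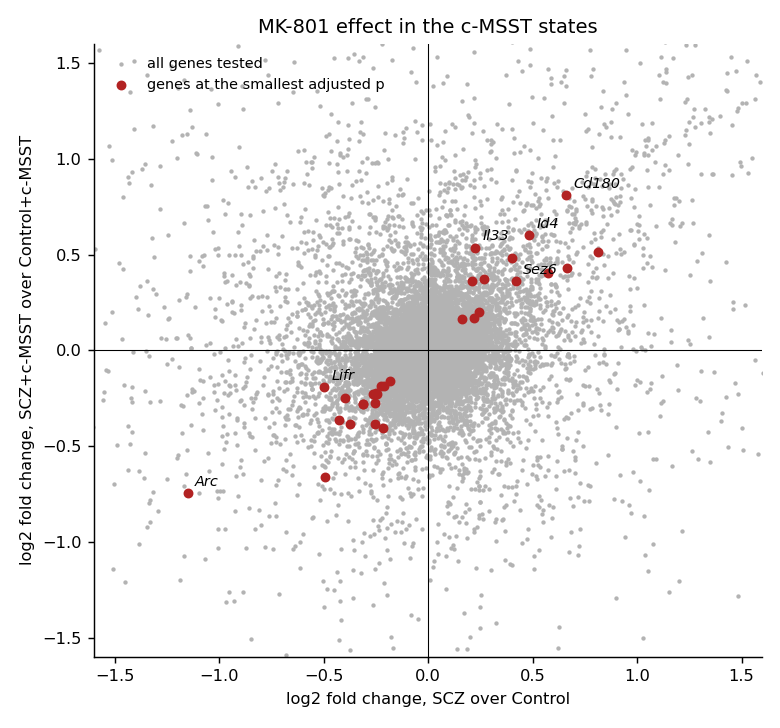
Log2 fold change of each tested gene in SCZ over Control (horizontal) and in SCZ+c-MSST over Control+c-MSST (vertical), with the 30 genes at the smallest adjusted p in red. The cloud of all genes is weakly related (r = 0.157), all 30 red points lie in the quadrants of equal sign, and 321 genes lie outside the axis limits of 1.6.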

How the data were processed

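RNA sequencing of total RNA (stranded kit, per the labels' protocols) was available for 19 libraries, grouped by their titles. The authors deposited estimated counts per gene, as whole numbers used without rounding, and FPKM values scaled by gene length and depth. The tools named in the submitters' processing notes are StringTie 1.3.5, Picard 2.18.29, STAR 2.7.7a and fastp 0.19.5, with build mm10; annotation and strand counting are not given in the sources used here.

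From the counts, edgeR 4.0.16 (R 4.3.3) kept 16417 of 20938 genes by filterByExpr on the 4 groups, normalised by TMM, and fitted a robust quasi-likelihood model with terms for MK-801 and c-MSST; effects within c-MSST states and their difference came from a model with a coefficient per group. The threshold was a Benjamini-Hochberg adjusted p under 0.05 over all genes. A count of 0 allows up to 3 counts, 0.0364 to 0.0598 CPM, for counting error only. P values measure the spread between libraries, which the labels do not place in batches. Alternatives were DESeq2 1.42.0 (Wald test), limma 3.58.1 voom, limma on log2(FPKM + 1) and log2(FPKM + 0.1), 1 surrogate variable (sva 3.50.0), other normalizations and filters, tissue scores as covariates, the replicate number as a block, and each library left out; the log2 total count as a covariate and DESeq2 with the striatal score were added after the data were seen. The edgeR fit was tested on simulated data.

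The comparison, the 46 gene lists and the naming rule were chosen with earlier results of these data known. The rule took up to 6 genes per direction by smallest p with a mean of 1 CPM or more (predicted and clone names such as 9330159F19Rik did not count), the 2 members of highest CPM in each list, all NMDA receptor subunits and Gabre, and the 6 genes most correlated with the gene of smallest p; not all are printed. Arc, Egr2 and the other list members given with values, Faah, Mrpl16, Hsf3, Prss48 and 9330159F19Rik were named after their values were seen. Positions are from GENCODE vM21 (mm10) and promoters from RefSeq.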

Additional observations from a re-analysis of the deposited data

Results flagged for a closer look

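Among the genes named by smallest p, the NMDA receptor subunits, Gabre and the genes whose sides do not overlap, 88 sets of values (1 gene in 1 group) were screened for a library that stands apart from the rest of its group by Dixon's criterion, and 6 did. Chance alone gives such a library in about 1 in 20 groups.

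Grin2b had 2560 CPM in Control+c-MSST 7, while the other libraries of that group had at most 516 CPM. Grin3a, a modulatory NMDA receptor subunit, had 121 CPM in Control 3, and the next library of the group had 86.0 CPM. Cd180 had 4.83 CPM in SCZ+c-MSST 4, next to 3.16 CPM. Adcy6 had 60.2 CPM in SCZ 2, the low end of its group, whose next library had 69.4 CPM. Hsf3 had 0.400 CPM in SCZ+c-MSST 3, next to 0.149 CPM, and 0.106 CPM in Control+c-MSST 4, where the other libraries were at 0.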

How the results depend on the processing

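The MK-801 main effect called 0 genes with edgeR, with 2675 at an unadjusted p under 0.05. It called 570 with DESeq2, 151 with limma voom, 119 with 1 surrogate variable, 8 with the log2 total count as a covariate, 1 with the striatal score, 1 with that score plus septal and choroid plexus scores, and 6 with DESeq2 and the striatal score; other scalings and filters, no c-MSST term, equal weight of the states, limma on log2 FPKM and the fit without Control 2 and 3 called 0. Fits without 1 library ranged from 0 to 274. Without c-MSST the MK-801 effect called 243 with DESeq2, 2 with voom and 0 to 94 without 1 library (94 without Control 4, 14 without Control 5, 3 without SCZ 1 and 1 each without SCZ 3, Control+c-MSST 2 and Control+c-MSST 7). With c-MSST it called 73, 40 and 0 to 1 (1 without Control+c-MSST 1), and the difference between the states called 40 with DESeq2 and 0 to 1 without 1 library (1 without SCZ 3). The cause was not tested.

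Same-numbered libraries did not deviate together (1 of 19 pairs above a correlation of 0.1, median −0.0108). These values give no sign that the numbers pair the samples, but they cannot exclude it. With the replicate block the main effect called 0 genes, with 1560 at an unadjusted p under 0.05.

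Some signs turned. Gabre was −0.41 with the replicate block, −0.30 with the striatal score, −0.73 with 3 scores, −0.68 with the total count and −0.65 with DESeq2 and the striatal score. In the same order for the striatal score, the 3 scores and DESeq2 with the striatal score, Grin2c was −0.037, −0.028 and −0.038, Grin3b was −0.090, −0.14 and −0.092, and Grin3a was 0.032 with the striatal score and 0.030 with DESeq2 and that score. The other settings turned no sign of the genes screened this way. Striatal score, total count and treatment move together, which limits what any of these fits can separate.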

Other observations

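Histone genes made for DNA replication, whose messenger RNAs end in a stem loop and carry no poly(A) tail, were noticed because H3c6 and H3c4 are among the 30 genes at the smallest adjusted p. Of 49 such genes tested, 46 had positive log2 fold changes with MK-801, against 50.0% of all genes, with 20 higher and 0 lower at an unadjusted p under 0.05 and 7 higher by DESeq2. The median was 0.26 in the additive model, 0.31 without c-MSST and 0.23 with c-MSST. Their summed level ran from 398 to 462 CPM with MK-801 and from 325 to 442 CPM with saline. These genes lie in clusters of near-identical copies, so single members are uncertain. The set was picked after H3c6 and H3c4 had been seen and is a description only.

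Interferon response genes had a median of −0.02 in the additive model, with 11 of 23 positive, and −0.26 with the striatal score, with 1 of 23 positive. In the c-MSST states the medians were −0.31 without c-MSST (3 positive) and 0.33 with c-MSST (19 positive). Scores ran from −0.272 to 0.228 in SCZ against −0.634 to 1.32 in Control, and from −0.235 to 0.621 in SCZ+c-MSST against −0.439 to −0.0901 in Control+c-MSST. The highest score belongs to Control 4. No member had an unadjusted p under 0.05 in the additive model, with or without the striatal score.

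Pcdh19, an adhesion protein of the protocadherin family, had 38.4, 60.7 and 79.3 CPM with MK-801 (lowest, median, highest) and 64.4, 80.8 and 104 CPM with saline, a log2 fold change of −0.52 ± 0.11 (edgeR adjusted p = 0.0642). Nptxr, a receptor for the pentraxins that cluster AMPA receptors, had 929, 1040 and 1320 CPM with MK-801 and 971, 1280 and 1650 CPM with saline (−0.30 ± 0.067, edgeR adjusted p = 0.0743). With the striatal score in the model Pcdh19 was −0.31 and Nptxr −0.17. Both were named after their values were seen. Neurotrophins and their receptors had 2 higher and 3 lower of 12 members at an unadjusted p under 0.05, with Bdnf among the lower ones. The 21 lists not described elsewhere held 326 member entries, of which 197 were positive, with medians from −0.13 for fibroblast markers to 0.24 for proliferation genes. At an unadjusted p under 0.05, 39 entries were higher and 13 lower, against 8.06% and 8.24% of all genes.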
